A study of Homo sapiens with 12 samples.

Results

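The 50 genes described here carry out mitosis and cytokinesis, the steps in which a cell divides its copied chromosomes and then itself. They are the rows of the deposited table whose gene name equals a symbol on a list of 50, and no symbol occurred more than once, so they are 50 of 60715 genes. RNA was sequenced from 4 established human lines of lung adenocarcinoma, named HCC4006, LC-2/ad, NCI-H2009 and NCI-H2228. The attached group is each line in ordinary culture without treatment. The day 1 and day 7 groups are the same lines trypsinized, moved to ultra-low attachment plates, which cells cannot grip, and collected after 1 or 7 days. All groups were kept in RPMI-1640 medium with serum and antibiotics. Every line has 1 library in every state, so the 4 lines are the replicates, and a p-value bears on what the lines have in common and not on any line alone. The attached libraries carry no time label, so loss of attachment, trypsin, replating and time in culture cannot be told apart.

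Entry into mitosis is driven by the kinase CDK1 bound to cyclins A and B. Chromosomes then attach to the spindle through kinetochores, a checkpoint holds the cell until all are attached, and the ubiquitin ligase APC/C releases the sister chromatids by destroying securin and cyclin B. Most of these genes are transcribed late in the cell cycle, in G2 and mitosis, and are held down in resting cells by the DREAM complex. It shares its MuvB core with the activators MYBL2 and FOXM1 and contacts a promoter element called the cell cycle homology region (CHR). Their summed RNA is widely used as a measure of proliferation. In bulk RNA, fewer cells in mitosis and less RNA of these genes per cell cannot be told apart.

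Libraries held between 31134420 and 41882024 estimated counts. The epithelial markers EPCAM, KRT8, KRT18 and KRT19 stood at 204 TPM (a level scaled to gene length and to the library) or more in every library, while CDH1, the fifth marker of that list, ranged from 16.2 to 685 TPM. Of the lung lineage markers, NKX2-1 stood at 26.5 TPM or more in every library, while NAPSA ranged from 1.90 to 705 TPM and SFTPB from 0.0 to 32.8 TPM. Among markers of other cell types, the leukocyte gene PTPRC stayed at or under 0.834 TPM and the fibroblast gene PDGFRB at or under 0.681 TPM. Some genes of those lists were higher. COL1A1 ranged from 4.12 to 347 TPM and CD68 from 2.65 to 59.3 TPM over all libraries. CD79A reached 106 TPM and LUM 43.4 TPM at most. The 5 leukocyte markers summed to between 13.4 and 22.6 TPM in attached libraries, between 18.8 and 166 TPM at day 1 and between 6.38 and 115 TPM at day 7. The 5 fibroblast markers summed to between 6.23 and 347 TPM, between 6.04 and 149.7 TPM and between 4.38 and 40.1 TPM in the same order, and the 4 endothelial markers to no more than 2.46, 4.56 and 13.2 TPM. The mitochondrial share of the TPM was higher at day 1 than attached in all 4 lines (1.49% and 1.94% in HCC4006, 1.56% and 3.39% in LC-2/ad, 1.03% and 1.28% in NCI-H2009, 0.526% and 1.76% in NCI-H2228). At day 7 it was 2.68%, 2.02%, 0.968% and 1.41% in the same order. The part of these values in the results was not tested.

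The library of NCI-H2009 at day 1 stood apart. Against the attached library of the line, its change in log2 CPM (counts per library size, on a log scale) depended on base composition, taken as the GC content of each gene's longest annotated transcript. Over all genes tested the median change was -0.89 in the decile of genes with the lowest GC and 0.32 in the decile with the highest. In the other lines the medians of all deciles lay between -0.05 and 0.16. Among the 50 mitosis genes the 25 of lowest GC had a median of -3.49 in this library and the 25 of highest GC a median of -0.93, against -1.43 and -1.51 in HCC4006, -0.94 and -1.01 in LC-2/ad and -2.60 and -2.51 in NCI-H2228. Pearson's r between change and GC across the 50 genes was 0.64 in NCI-H2009 and between -0.45 and -0.20 in the other lines, as a description, since genes of a library share its composition. With gene length r was -0.67 in NCI-H2009 and between -0.12 and 0.38 elsewhere.

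Single genes show how large this difference could be. SMC4, a core subunit of the condensin complexes, stood at 128 TPM in attached NCI-H2009, at 0.670 TPM at day 1 and at 115 TPM at day 7. CENPE, a kinetochore motor with the lowest GC of the 50 genes (35.3%), went through 13.01, 0.101 and 3.26 TPM. SMC4 stood between 59.4 and 97.3 TPM at day 1 in the other lines. Some genes lay far from the GC trend of NCI-H2009. At low GC, the change in log2 CPM was -0.98 in CDK1 (37.0%), -0.73 in MAD2L1 (39.4%) and -0.63 in SPC25 (40.0%). At 48.3% GC, MKI67 had -3.80. A 5 by 5 grid set each gene against all genes of like GC and length. In it the median of the 50 genes in this library was -1.62 in place of -1.68, and 49 of 50 were below 0. The grid takes out only the median of all genes, so the steeper dependence among the 50 genes stays in these values. Counts, group medians and fitted changes at day 1 are therefore given with and without this library. In the accounts by role, a value in brackets after a day 1 change or median is the same value in the fit without it.

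**Figure D1:**
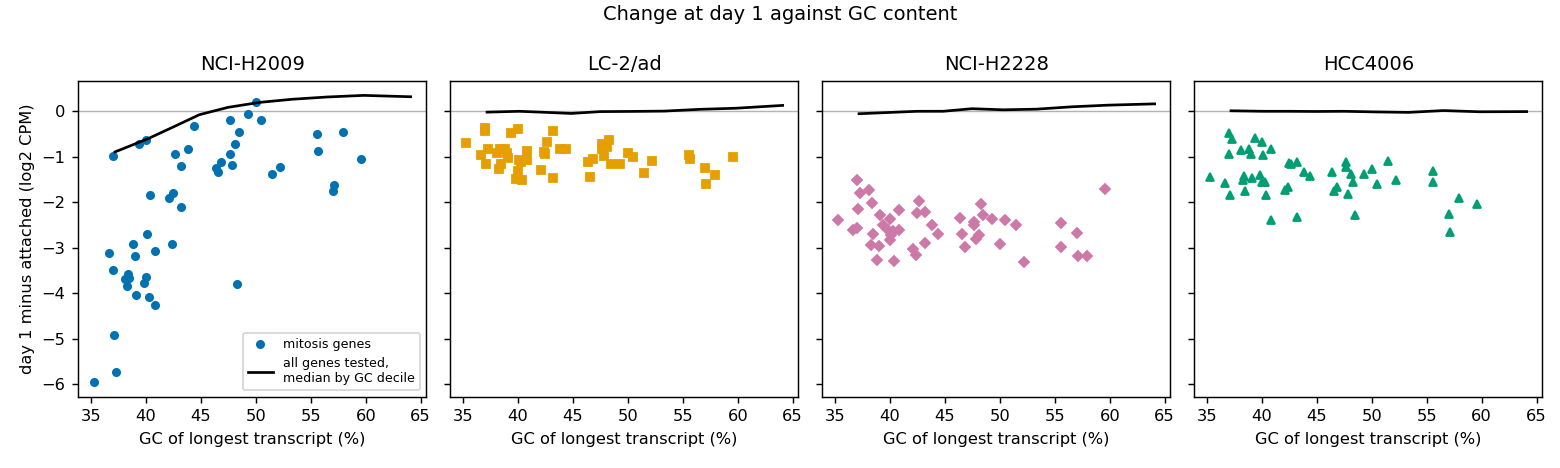
Change from attached to day 1 in log2 CPM (vertical axis) against the GC content of the longest transcript in percent (horizontal axis), 1 panel per cell line; points are the 50 mitosis genes and the black line is the median of all genes tested in each decile of GC content. In NCI-H2009 both the line and the points climb with GC, while in the other lines the all-gene line stays near 0 and the points lie below it at every GC content.

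Transcripts of mitosis were lower in detached cells of all lines. After 1 day every one of the 50 genes had a fitted log2 change below 0, with a median of -1.73 and a range of -2.36 to -0.92, while the median of all 17395 genes tested was 0.01. All 50 passed the filter on low counts. 13 genes passed the test (edgeR quasi-likelihood test, Benjamini-Hochberg adjusted p of 0.0496 for each), against 0.339% of all genes called lower. They were the cyclins CCNA2 and CCNB1, the kinases PLK1, AURKA, PBK and BUB1, the separase ESPL1, the kinesins KIF14 and KIF23, the spindle proteins DLGAP5 and HMMR, and ANLN and ARHGAP11A of cytokinesis. 49 genes had an unadjusted p under 0.05, against 9.01% of all genes, and 49 were lower in all 4 lines, against 16.5%. The exception to both was UBE2C. In 31 genes the highest of the 4 day 1 libraries lay under the lowest attached library, against 2.9% of all genes.

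The calls at day 1 lie at the threshold: leaving out any 1 library, attached, day 1 or day 7, left 0 or 1 gene called, while DESeq2 on the same counts called 47 of 50 (4.89% of its genes were called lower). Without the NCI-H2009 day 1 library the median was -1.74 (range -2.58 to -0.83), all 50 were below 0, and all 50 had an unadjusted p under 0.05, against 7.62% of all genes. edgeR then called 0 genes of the 50 and 0.0% of all 18104 tested. limma on log2(TPM + 1) called 19 of the 50, against 0.356% of all genes, and DESeq2 49, against 3.5%. In 34 genes the other 3 day 1 libraries lay under every attached library, against 4.05% of all genes.

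After 7 days these transcripts were again lower. The median log2 change was -1.61, with a range of -2.13 to -0.94, and all 50 genes were lower in all 4 lines, against 13.8% of all genes. CCNA2 and AURKA passed the test (edgeR adjusted p = 0.0448 and 0.0474), against 0.0977% of all genes called lower. 49 genes had an unadjusted p under 0.05, against 7.19%, the exception being SMC4, and in 32 genes the groups did not overlap, against 1.36%. Leaving the NCI-H2009 day 1 library out of the fit raised the calls to 9, against 0.276% of all genes, which were CCNA2, CCNB1, AURKA, CDC20, KIF18A, DLGAP5, HMMR, ANLN and ARHGAP11A, while leaving out any other library ended both calls. DESeq2 called 45 of the 50 (3.5% of all its genes). Both comparisons use the same attached libraries, so they are not independent of each other.

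The summed level was lower in detached cells of each line. In NCI-H2009 the 50 genes summed to 6875 TPM attached, 3223 TPM at day 1 and 2209 TPM at day 7. UBE2C alone held 1352, 1195 and 336 TPM of these sums in the same order. The median of the 50 genes in this line went the other way after day 1, at 78.4, 13.7 and 24.6 TPM. In LC-2/ad the sums were 5967, 2959.8 and 3172 TPM. NCI-H2228 gave 4482, 691 and 815 TPM. HCC4006 gave 4472, 1555 and 2086 TPM. Relative to attached culture, day 1 stood at 34.8% in HCC4006, 49.6% in LC-2/ad, 46.9% in NCI-H2009 and 15.4% in NCI-H2228, and day 7 at 46.6%, 53.2%, 32.1% and 18.2%. NCI-H2228 is thus lowest at both times, and no line returned to more than 53.2% of its attached level.

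**Figure D2:**
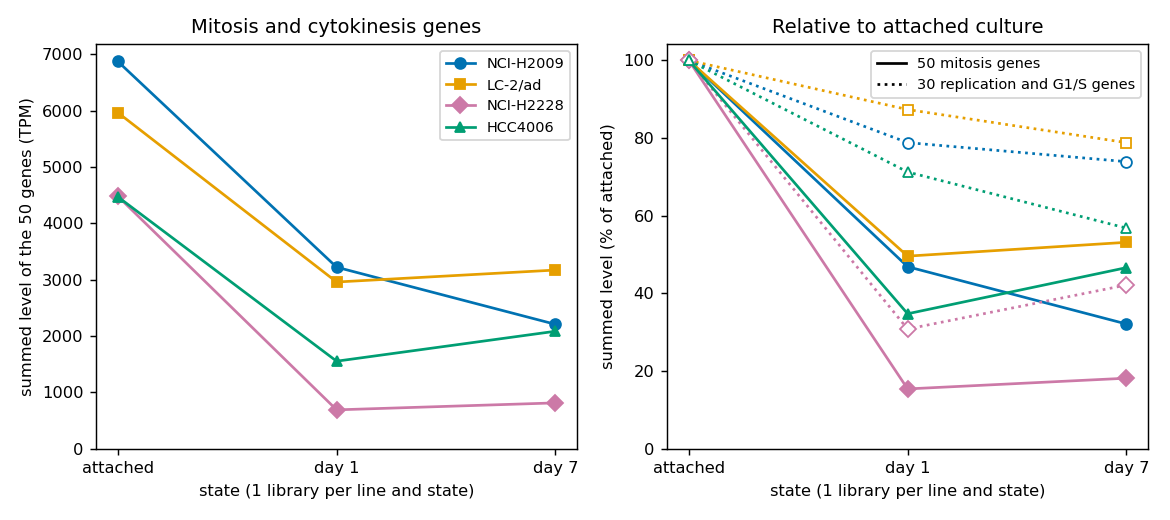
Left, summed level of the 50 genes in TPM (vertical axis) in each state (horizontal axis), 1 line per cell line and 1 library per point; right, the same as percent of the attached library (solid) beside 30 genes of DNA replication and G1/S (dotted, open symbols). All solid lines are at or under 53.2% at both times, with NCI-H2228 lowest at 15.4% and 18.2%. In NCI-H2009 at day 1 UBE2C alone holds 1195 of the 3223 TPM.

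The promoters of these genes were also described. The 50 genes are a fixed list of mitosis genes, so the shares of motif matches among them do not depend on the RNA values and say nothing about the change. RefSeq gives the 250 bases before and 50 after the start (build GRCh38.p14) of 42 of the 50 genes; the others are AURKA, TTK, RACGAP1, TPX2, BIRC5, PBK, UBE2C and FOXM1. The letters searched on both strands were TTTGAA or TTCGAA for the CHR, CCAAT for the CCAAT box that NF-Y binds, and TTCCCGC or TTGGCGC for E2F sites. Of the genes with the smallest p at day 1, the first 6 that hold both a CCAAT box and a CHR before the start, in a stretch outside the span of the gene in the deposited table, are shown, in the 5′ to 3′ direction of the gene, with both motifs in capitals on whichever strand they lie (ATTGG is CCAAT and TTCAAA is TTTGAA on the other strand).
ESPL1: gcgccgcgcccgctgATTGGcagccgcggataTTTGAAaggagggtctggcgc
KIF4A: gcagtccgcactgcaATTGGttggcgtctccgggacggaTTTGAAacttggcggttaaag
KIF11: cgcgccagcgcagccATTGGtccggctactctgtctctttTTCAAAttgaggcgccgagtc
TOP2A: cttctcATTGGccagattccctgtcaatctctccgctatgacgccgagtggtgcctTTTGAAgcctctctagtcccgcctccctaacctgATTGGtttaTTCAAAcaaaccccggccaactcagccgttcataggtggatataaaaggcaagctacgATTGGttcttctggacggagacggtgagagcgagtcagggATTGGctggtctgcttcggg
MKI67: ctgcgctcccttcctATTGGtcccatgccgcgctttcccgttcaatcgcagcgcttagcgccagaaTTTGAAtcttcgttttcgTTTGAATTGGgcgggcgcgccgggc
CDC20: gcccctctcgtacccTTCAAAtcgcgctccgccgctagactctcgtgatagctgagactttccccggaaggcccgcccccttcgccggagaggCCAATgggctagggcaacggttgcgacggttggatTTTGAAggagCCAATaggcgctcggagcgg
The stretches lie at chr12:53268236-53268288 on the plus strand for ESPL1, chrX:70290031-70290090 on the plus strand for KIF4A, chr10:92593062-92593122 on the plus strand for KIF11 and chr17:40417930-40418146 on the minus strand for TOP2A. Those of MKI67 and CDC20 lie at chr10:128126428-128126536 on the minus strand and chr1:43358788-43358945 on the plus strand. In ESPL1, KIF4A and KIF11 a single CCAAT box precedes a single CHR. TOP2A holds 4 CCAAT and 2 CHR matches, CDC20 has 2 of each in turn, and in MKI67 the second CHR and the second CCAAT match share a base.

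A CHR match was found in 33 of 42 genes (78.6%, 95% exact binomial interval 63.2 to 89.7), against 19.5% of 27305 genes with a promoter of the same length. A CCAAT match was also found in 33 of 42, against 39.7%, and both motifs together in 27 of 42 (64.3%), against 7.85%. An E2F match was found in 8 of 42 (19.0%), against 10.96%. Of 26 genes of DNA replication and G1/S with a listed promoter, 2 held a CHR match, 20 an E2F match and 17 (65.4%) a CCAAT match. Matches of the CHR lay near the start, with a median position of -28 bases and 34 of 50 matches within 50 bases of it, while CCAAT matches lay farther out, at a median of -78.5. Some genes have several listed starts: counted by start, 36 of 50 held a CHR match, against 16.4% of all 35116 starts. A match is a description of letters and not of binding, and forms of these elements other than the letters given were not searched.

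The change was also compared between genes with and without a match to each motif. The 33 genes with a CHR match had a median of -1.72 at day 1. The 9 with no match to the letters searched (CCNA2, CCNB1, PTTG1, CENPE, AURKB, KIF20A, KIF2C, ARHGAP11A and NCAPH) had a median of -1.53. Without the NCI-H2009 day 1 library the order turned, with -1.70 and -1.96. The 8 genes with an E2F match (CDK1, CDC25C, CENPA, SPC25, KIF18A, NUSAP1, ECT2 and NCAPG) had a median of -1.30 against -1.95 for the other 34, and -1.41 against -1.79 without that library. The 33 with a CCAAT match had a median of -1.70 and the 9 without -2.01, which became -1.76 and -1.73 without the library. These are descriptions of small groups, with no test.

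**Figure D3:**
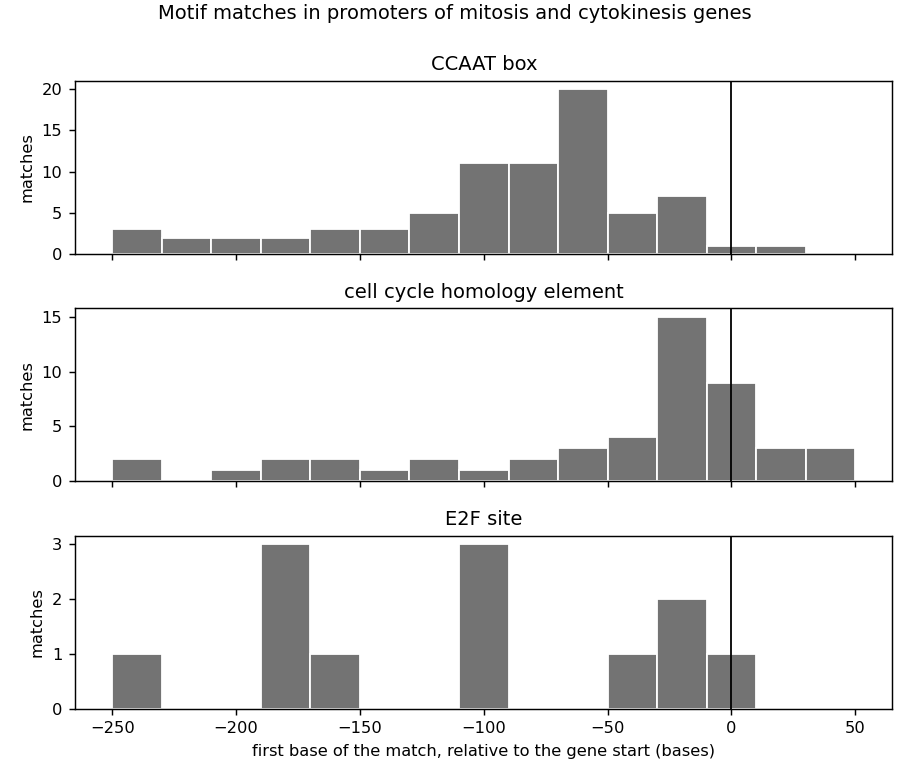
Number of motif matches (vertical axes) by distance of the first base of the match from the gene start in bases (horizontal axis, negative before the start), in bins of 20 bases, for the promoters of the 42 genes; the black line marks the start. CHR matches gather just before the start (median -28), CCAAT matches farther out (median -78.5), and E2F matches are few (12 in 8 genes).

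Cyclins, CDK1 and their regulators open mitosis. In the accounts by role and in the lists of other genes below, a gene is said to have fallen where it was lower and passed the test. The fitted changes of all 50 genes were below 0 at both times, also in genes not said to have fallen. 2 of these 6 genes fell at day 1 and 1 at day 7, and the medians were -1.36 (-1.73) and -1.57. Calls in this and the following roles stand beside 0.339% of all genes called lower at day 1 and 0.0977% at day 7. CCNA2 encodes cyclin A, needed for S phase and for entry into mitosis (chromosome 4, 121816444 to 121823883). In attached cells it stood at 73.5 TPM in HCC4006, 121 TPM in LC-2/ad, 107 TPM in NCI-H2009 and 73.5 TPM in NCI-H2228. At day 1 it stood at 20.9 TPM in HCC4006, 48.9 TPM in LC-2/ad, 23.02 TPM in NCI-H2009 and 8.23 TPM in NCI-H2228, and at day 7 at 21.9 TPM in HCC4006, 45.9 TPM in LC-2/ad, 30.4 TPM in NCI-H2009 and 11.2 TPM in NCI-H2228. Every detached library was thus under every attached one. The mean went from 93.7 ± 24.1 TPM (SD, n = 4) to 25.3 ± 17.05 TPM and 27.4 ± 14.6 TPM. The log2 change, given ± SE, was -2.01 ± 0.26 (-2.07) at day 1 and -2.02 ± 0.26 at day 7 (edgeR adjusted p = 0.0496 and 0.0448). CCNB1, a B-type cyclin that activates CDK1, fell at day 1, with a log2 change of -1.95 ± 0.35 (-2.35), and had -1.66 ± 0.34 at day 7 (edgeR adjusted p = 0.103). The other genes did not pass: CCNB2, the second B-type cyclin, had -1.29 (-1.74) and -1.67, the kinase CDK1 itself -1.29 (-1.41) and -1.49, its activating phosphatase CDC25C -1.15 (-1.53) and -1.46, and the transcription factor FOXM1 -1.43 (-1.73) and -1.41.

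All 3 mitotic kinases fell at day 1, with a median of -2.18 (-2.36), and AURKA also at day 7. AURKA matures the centrosomes and builds the spindle (chromosome 20, 56369389 to 56392337). Attached levels were 198 TPM in HCC4006, 141 TPM in LC-2/ad, 129 TPM in NCI-H2009 and 84.2 TPM in NCI-H2228. Day 1 levels were 55.7 TPM in HCC4006, 47.3 TPM in LC-2/ad, 36.6 TPM in NCI-H2009 and 12.5 TPM in NCI-H2228, and day 7 levels 67.9 TPM in HCC4006, 58.9 TPM in LC-2/ad, 30.8 TPM in NCI-H2009 and 14.5 TPM in NCI-H2228. The groups did not overlap, and NCI-H2228 was lowest in each. For AURKA the log2 change was -1.81 ± 0.27 (-2.07) at day 1 and -1.88 ± 0.27 at day 7 (edgeR adjusted p = 0.0496 and 0.0474). PLK1 triggers mitotic entry and acts again at kinetochores and the cleavage furrow (chromosome 16, 23677656 to 23690367). Its attached levels were 349 TPM in HCC4006, 179 TPM in LC-2/ad, 225 TPM in NCI-H2009 and 206 TPM in NCI-H2228. They compare with 52.4 TPM in HCC4006, 60.8 TPM in LC-2/ad, 57.8 TPM in NCI-H2009 and 21.7 TPM in NCI-H2228 at day 1 and with 129.6 TPM in HCC4006, 96.7 TPM in LC-2/ad, 67.6 TPM in NCI-H2009 and 26.6 TPM in NCI-H2228 at day 7. Here too no detached library reached the lowest attached one, and in TPM the day 7 library was above the day 1 library in each line. In log2 CPM that difference was -0.41 in NCI-H2009 and above 0 in the other lines. For PLK1 the log2 change was -2.28 ± 0.36 (-2.58) at day 1 and -1.82 ± 0.35 at day 7 (edgeR adjusted p = 0.0496 and 0.0935). PBK, a kinase active in mitotic cells, had -2.18 ± 0.36 (-2.36) and -1.66 ± 0.35. None of the 3 passed the day 1 test without the NCI-H2009 day 1 library.

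The spindle checkpoint delays anaphase until every kinetochore is attached. 1 of its 4 genes, the kinase BUB1, fell at day 1, with a log2 change of -1.59 ± 0.28 (-1.58), and had -1.60 ± 0.28 at day 7 (edgeR adjusted p = 0.0794). BUB1B encodes BUBR1, which binds and blocks the APC/C activator CDC20 (chromosome 15, 40161023 to 40221123). It stood at 33.03 TPM in HCC4006, 37.9 TPM in LC-2/ad, 60.3 TPM in NCI-H2009 and 33.4 TPM in NCI-H2228 in attached cells. At day 1 it stood at 14.97 TPM in HCC4006, 24.6 TPM in LC-2/ad, 10.7 TPM in NCI-H2009 and 5.44 TPM in NCI-H2228, and at day 7 at 10.7 TPM in HCC4006, 26.9 TPM in LC-2/ad, 19.7 TPM in NCI-H2009 and 8.03 TPM in NCI-H2228. The groups did not overlap, and LC-2/ad was highest in both detached groups. The log2 changes were -1.50 ± 0.28 (-1.36) and -1.63 ± 0.28, above the threshold (edgeR adjusted p = 0.0573 and 0.0784). TTK, the kinase that starts checkpoint signalling, had -1.87 (-1.56) and -1.74, and MAD2L1, which forms the inhibitor with BUBR1, had -1.09 (-1.32) and -1.67. Medians of the 4 were -1.54 (-1.46) and -1.65.

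Release of the sister chromatids depends on CDC20, the activator of the APC/C, on its ubiquitin-conjugating enzyme UBE2C, on securin (PTTG1) and on the protease separase (ESPL1). ESPL1 fell at day 1 (chromosome 12, 53268299 to 53293638). Attached libraries held 6.42 TPM in HCC4006, 9.13 TPM in LC-2/ad, 11.4 TPM in NCI-H2009 and 6.29 TPM in NCI-H2228. Day 1 libraries held 1.49 TPM in HCC4006, 3.77 TPM in LC-2/ad, 2.74 TPM in NCI-H2009 and 0.832 TPM in NCI-H2228, and day 7 libraries 2.80 TPM in HCC4006, 4.97 TPM in LC-2/ad, 3.97 TPM in NCI-H2009 and 1.16 TPM in NCI-H2228. All detached libraries were under all attached ones, and each line was higher at day 7 than at day 1. The log2 change was -2.0 ± 0.30 (-2.14) at day 1 (edgeR adjusted p = 0.0496) and -1.51 ± 0.29 at day 7 (edgeR adjusted p = 0.0933). PTTG1 had the highest mean level of the 50 genes in attached cells, 679 ± 225 TPM, and log2 changes of -1.19 (-1.77) and -1.45 that did not pass. CDC20 had -1.72 (-2.24) and -1.85, also not past the threshold.

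UBE2C had a wide range of levels between lines. In attached cells it stood at 187 TPM in HCC4006, 416 TPM in LC-2/ad, 1352 TPM in NCI-H2009 and 2.97 TPM in NCI-H2228, so that NCI-H2228 had very little of it while other genes of this group were at ordinary levels there, such as PTTG1 at 608 TPM. At day 1 UBE2C stood at 73.3 TPM in HCC4006, 220.3 TPM in LC-2/ad, 1195 TPM in NCI-H2009 and 0.230 TPM in NCI-H2228, and at day 7 at 87.2 TPM in HCC4006, 226 TPM in LC-2/ad, 336 TPM in NCI-H2009 and 0.410 TPM in NCI-H2228. In NCI-H2009 the day 1 library was close to the attached one, and the difference in log2 CPM was 0.21, the only value above 0 among the 50 genes and 4 lines at day 1, although in TPM the library was under the attached one. The fitted changes were -0.92 ± 0.50 (-1.64) and -1.54 ± 0.50, with edgeR adjusted p of 0.334 and 0.195.

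None of the 6 centromere and kinetochore genes passed the test at either time, though all 6 had an unadjusted p under 0.05 at both. NDC80 is the kinetochore subunit that grips microtubules (chromosome 18, 2571557 to 2616635). In attached cells it stood at 26.2 TPM in HCC4006, 30.5 TPM in LC-2/ad, 70.7 TPM in NCI-H2009 and 43.8 TPM in NCI-H2228. At day 1 it stood at 12.7 TPM in HCC4006, 14.2 TPM in LC-2/ad, 8.87 TPM in NCI-H2009 and 5.84 TPM in NCI-H2228, and at day 7 at 15.5 TPM in HCC4006, 14.1 TPM in LC-2/ad, 25.4 TPM in NCI-H2009 and 5.54 TPM in NCI-H2228. The groups did not overlap, although the highest day 7 library, NCI-H2009, was just under the lowest attached one, HCC4006. The log2 changes were -1.92 ± 0.37 (-1.70) and -1.69 ± 0.37 (edgeR adjusted p = 0.0621 and 0.115). Its partners NUF2 and SPC25 had -2.01 (-1.80) and -1.07 (-1.32) at day 1, and CENPA, the histone variant that marks centromeres, had -1.70 (-2.05). CENPF, a kinetochore protein of G2 and mitosis, and CENPE had -2.34 ± 0.47 (-1.90) and -2.24 ± 0.70 (-1.58). At day 7 the 6 genes ranged from -1.84 to -1.21.

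The chromosomal passenger complex corrects faulty attachments and later directs cytokinesis. None of its 4 genes passed the test. CDCA8 encodes borealin, which docks the complex on chromatin (chromosome 1, 37692481 to 37709719). It stood at 43.7 TPM in HCC4006, 58.4 TPM in LC-2/ad, 82.98 TPM in NCI-H2009 and 54.8 TPM in NCI-H2228 in attached cells. Detached cells held 19.3 TPM in HCC4006, 22.9 TPM in LC-2/ad, 24.8 TPM in NCI-H2009 and 8.72 TPM in NCI-H2228 at day 1 and 18.7 TPM in HCC4006, 32.9 TPM in LC-2/ad, 26.4 TPM in NCI-H2009 and 8.16 TPM in NCI-H2228 at day 7. The groups did not overlap, and within the detached groups NCI-H2228 was lowest. The log2 changes were -1.62 ± 0.30 (-1.76) and -1.69 ± 0.30 (edgeR adjusted p = 0.054 and 0.0794). The kinase of the complex, AURKB, had -1.53 (-2.0) and -2.04, the survivin gene BIRC5 -1.79 (-2.14) and -1.82, and the scaffold INCENP -1.47 (-1.60) and -1.48. INCENP had the lowest attached mean of the 50 genes, 3.54 ± 2.07 TPM.

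Of the 7 kinesins, motors that slide or shorten microtubules, KIF14 and KIF23 fell at day 1 and none passed at day 7. KIF23 is the motor of centralspindlin, which bundles the midzone and marks the cleavage plane (chromosome 15, 69414246 to 69448427). Attached levels were 42.7 TPM in HCC4006, 41.2 TPM in LC-2/ad, 64.6 TPM in NCI-H2009 and 40.7 TPM in NCI-H2228. They were 12.3 TPM in HCC4006, 20.9 TPM in LC-2/ad, 7.01 TPM in NCI-H2009 and 3.98 TPM in NCI-H2228 at day 1 and 14.9 TPM in HCC4006, 20.2 TPM in LC-2/ad, 20.8 TPM in NCI-H2009 and 4.85 TPM in NCI-H2228 at day 7. Groups did not overlap, and NCI-H2009 stood above the other attached libraries. The fit gave KIF23 a log2 change of -2.20 ± 0.37 (-1.99) at day 1 and -1.89 ± 0.36 at day 7 (edgeR adjusted p = 0.0496 and 0.0915). KIF14, which acts in cytokinesis, had -2.36 ± 0.41 (-1.99) and -1.58 ± 0.39. Its day 1 change was the largest of the 50 genes with all libraries, but PLK1 had the largest without the NCI-H2009 day 1 library. KIF18A was then the nearest to 0. KIF11, which pushes the spindle poles apart, had -1.95 (-1.56) and -1.52, the chromosome-aligning KIF18A -1.31 (-0.83) and -1.37, and KIF20A of the midzone -1.49 (-1.96) and -2.0. The microtubule depolymerase KIF2C had -1.28 (-1.73) and -1.39, and the chromosome-bound KIF4A -1.57 (-1.66) and -1.48.

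Among 6 genes of spindle assembly DLGAP5 and HMMR fell at day 1. HMMR links TPX2 and microtubules at the spindle poles (chromosome 5, 163460203 to 163491941). In attached cells it stood at 68.2 TPM in HCC4006, 112 TPM in LC-2/ad, 35.5 TPM in NCI-H2009 and 68.5 TPM in NCI-H2228. At day 1 it stood at 22.1 TPM in HCC4006, 61.3 TPM in LC-2/ad, 3.26 TPM in NCI-H2009 and 8.12 TPM in NCI-H2228, and at day 7 at 30.6 TPM in HCC4006, 45.8 TPM in LC-2/ad, 11.05 TPM in NCI-H2009 and 12.4 TPM in NCI-H2228. Each line was lower in both detached states, but the groups overlapped, because detached LC-2/ad stayed above attached NCI-H2009. The fit gave HMMR a log2 change of -2.08 ± 0.35 (-1.81) at day 1 and -1.91 ± 0.34 at day 7 (edgeR adjusted p = 0.0496 and 0.0794). DLGAP5, which stabilises kinetochore fibres, had -2.29 ± 0.39 (-1.94) and -1.76 ± 0.38. TPX2, the activator of AURKA, had -1.73 (-1.97) and -1.67, and the microtubule-binding NUSAP1 -1.22 (-1.40) and -1.40. CKAP2L had -2.29 (-1.87) and -1.39, and ASPM, which acts at the spindle poles, -2.36 (-1.83) and -1.54. The median of the 6 was -2.18 (-1.85) at day 1 and -1.61 at day 7.

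In cytokinesis, ANLN and ARHGAP11A fell at day 1. ARHGAP11A encodes a GTPase-activating protein for RHOA (chromosome 15, 32615144 to 32639941). Attached libraries stood at 25.1 TPM in HCC4006, 26.5 TPM in LC-2/ad, 40.9 TPM in NCI-H2009 and 23.6 TPM in NCI-H2228. Day 1 libraries stood at 9.17 TPM in HCC4006, 9.54 TPM in LC-2/ad, 2.61 TPM in NCI-H2009 and 4.04 TPM in NCI-H2228, and day 7 libraries at 11.95 TPM in HCC4006, 14.4 TPM in LC-2/ad, 11.9 TPM in NCI-H2009 and 3.67 TPM in NCI-H2228. The groups did not overlap, and NCI-H2009 went from the highest attached library to the lowest at day 1. The log2 change was -2.34 ± 0.38 (-1.99) at day 1 and -1.79 ± 0.37 at day 7. ANLN, the furrow scaffold anillin, had -2.33 ± 0.40 (-1.99) and -2.13 ± 0.39, the largest fitted day 7 difference of the 50 genes (edgeR adjusted p = 0.0794). The RHOA activator ECT2 had -1.70 (-1.25) and -0.98, its partner RACGAP1 -1.37 (-1.64) and -1.39, and the midzone bundler PRC1 -1.41 (-1.69) and -1.34, none past the threshold.

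The 5 genes of chromosome structure did not pass the test at either time. MKI67 encodes Ki-67, the coat of mitotic chromosomes used in pathology as a proliferation marker (chromosome 10, 128096659 to 128126423). In attached cells it stood at 29.3 TPM in HCC4006, 61.4 TPM in LC-2/ad, 73.5 TPM in NCI-H2009 and 15.7 TPM in NCI-H2228. At day 1 it stood at 9.57 TPM in HCC4006, 38.8 TPM in LC-2/ad, 4.06 TPM in NCI-H2009 and 5.62 TPM in NCI-H2228, and at day 7 at 14.2 TPM in HCC4006, 39.9 TPM in LC-2/ad, 29.5 TPM in NCI-H2009 and 2.47 TPM in NCI-H2228. Each line was lower when detached, yet groups overlapped widely, since detached LC-2/ad was above attached NCI-H2228 and HCC4006. The log2 changes were -1.97 ± 0.45 (-1.54) and -1.50 ± 0.44 (edgeR adjusted p = 0.0767 and 0.167). NCAPH is a subunit of condensin I (chromosome 2, 96335766 to 96377091). Its attached levels were 53.4 TPM in HCC4006, 69.4 TPM in LC-2/ad, 42.9 TPM in NCI-H2009 and 32.7 TPM in NCI-H2228. Detached levels were 27.2 TPM in HCC4006, 41.6 TPM in LC-2/ad, 16.7 TPM in NCI-H2009 and 4.97 TPM in NCI-H2228 at day 1 and 29.5 TPM in HCC4006, 35.4 TPM in LC-2/ad, 15.4 TPM in NCI-H2009 and 6.53 TPM in NCI-H2228 at day 7. It was lower in each line with overlapping groups, and the log2 changes were -1.33 ± 0.32 (-1.55) and -1.54 ± 0.32 (edgeR adjusted p = 0.0834 and 0.105). NCAPG of the same complex had -2.05 (-1.75) and -2.01, and the decatenating enzyme TOP2A -2.07 (-1.62) and -1.50. SMC4 had -1.71 ± 0.71 (-1.10) and -0.94 ± 0.67, the latter nearest to 0 of the 50 genes with all libraries.

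**Figure D4:**
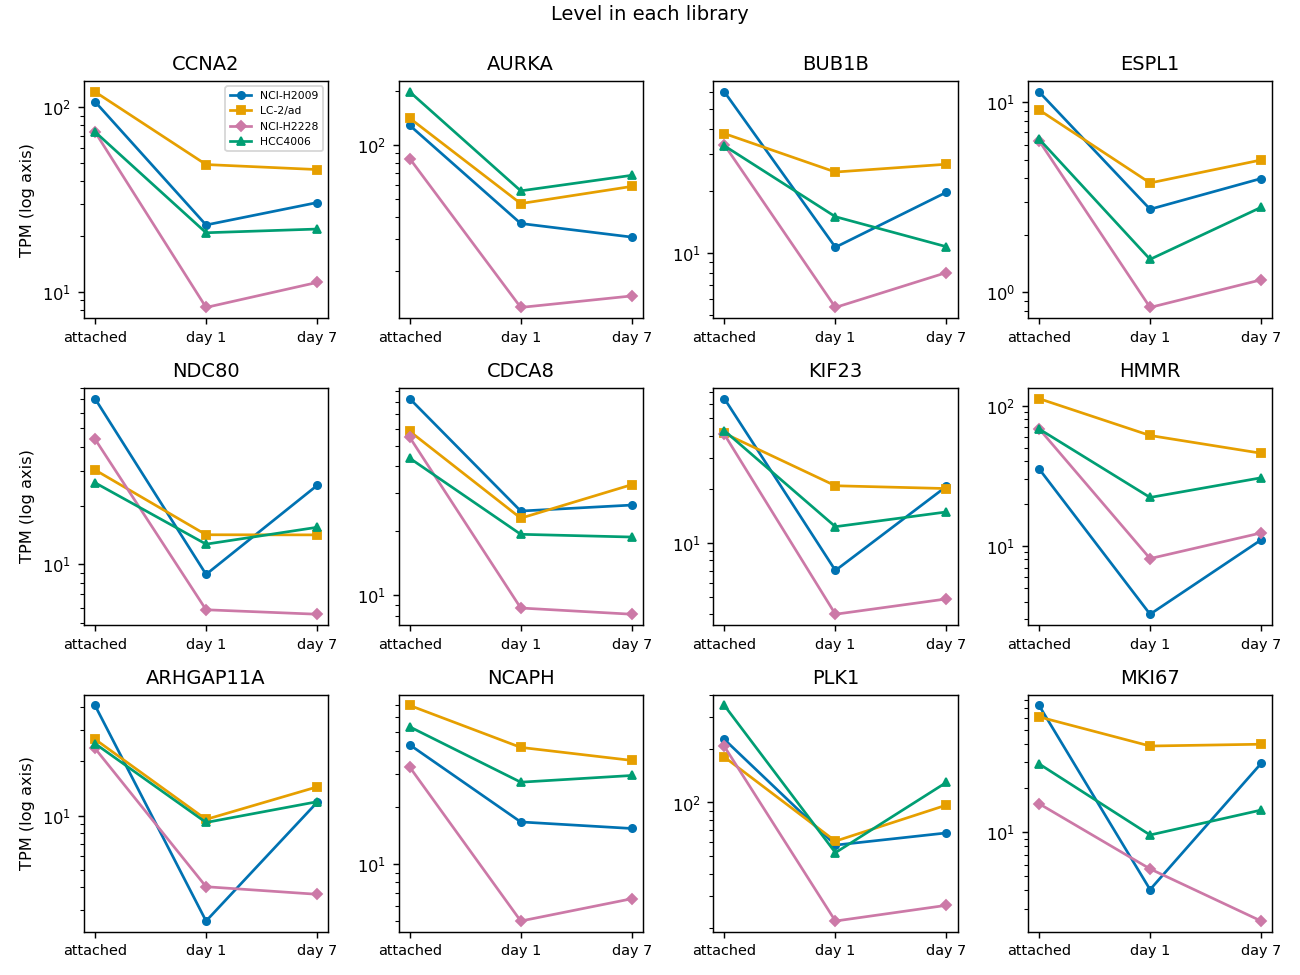
Level in TPM on a log axis (vertical) in each state (horizontal) for 12 genes, 1 line per cell line and 1 library per point. Every detached point lies under the attached point of its line. In TPM the NCI-H2009 line is higher at day 7 than at day 1 in every gene except AURKA and NCAPH. The rise is steepest in BUB1B, NDC80, KIF23, HMMR, ARHGAP11A and MKI67. In log2 CPM CCNA2 (-0.23), PLK1 (-0.41) and CDCA8 (-0.56) were also lower at day 7 than at day 1 in this line. The median difference of all genes tested in the line was 0.41 in log2(TPM + 1), against 0.03 in log2 CPM.

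The lines differed in the size of the change, with no test possible for a line with 1 library per state. At day 1 the median difference of the 50 genes in log2 CPM was -2.59 in NCI-H2228, -1.68 in NCI-H2009, -1.44 in HCC4006 and -0.99 in LC-2/ad. At day 7 it was -2.51, -1.93, -1.04 and -0.96 in the same order. On the log2(TPM + 1) scale NCI-H2009 had -1.87 at day 1 and -1.57 at day 7; the median of all genes tested in this line was then -0.17 and 0.20, against 0.0 and 0.04 in log2 CPM. NCI-H2228 had the largest difference of the 4 lines for 31 genes at day 1 and 45 at day 7, and LC-2/ad the smallest for 31 and 32. At day 1 the gene with the largest difference was CENPE in NCI-H2009 (-5.96), BIRC5 in NCI-H2228 (-3.32) and PLK1 in LC-2/ad (-1.60) and HCC4006 (-2.65). KIF18A had the smallest difference in LC-2/ad (-0.37), HCC4006 (-0.48) and NCI-H2228 (-1.52).

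**Figure D5:**
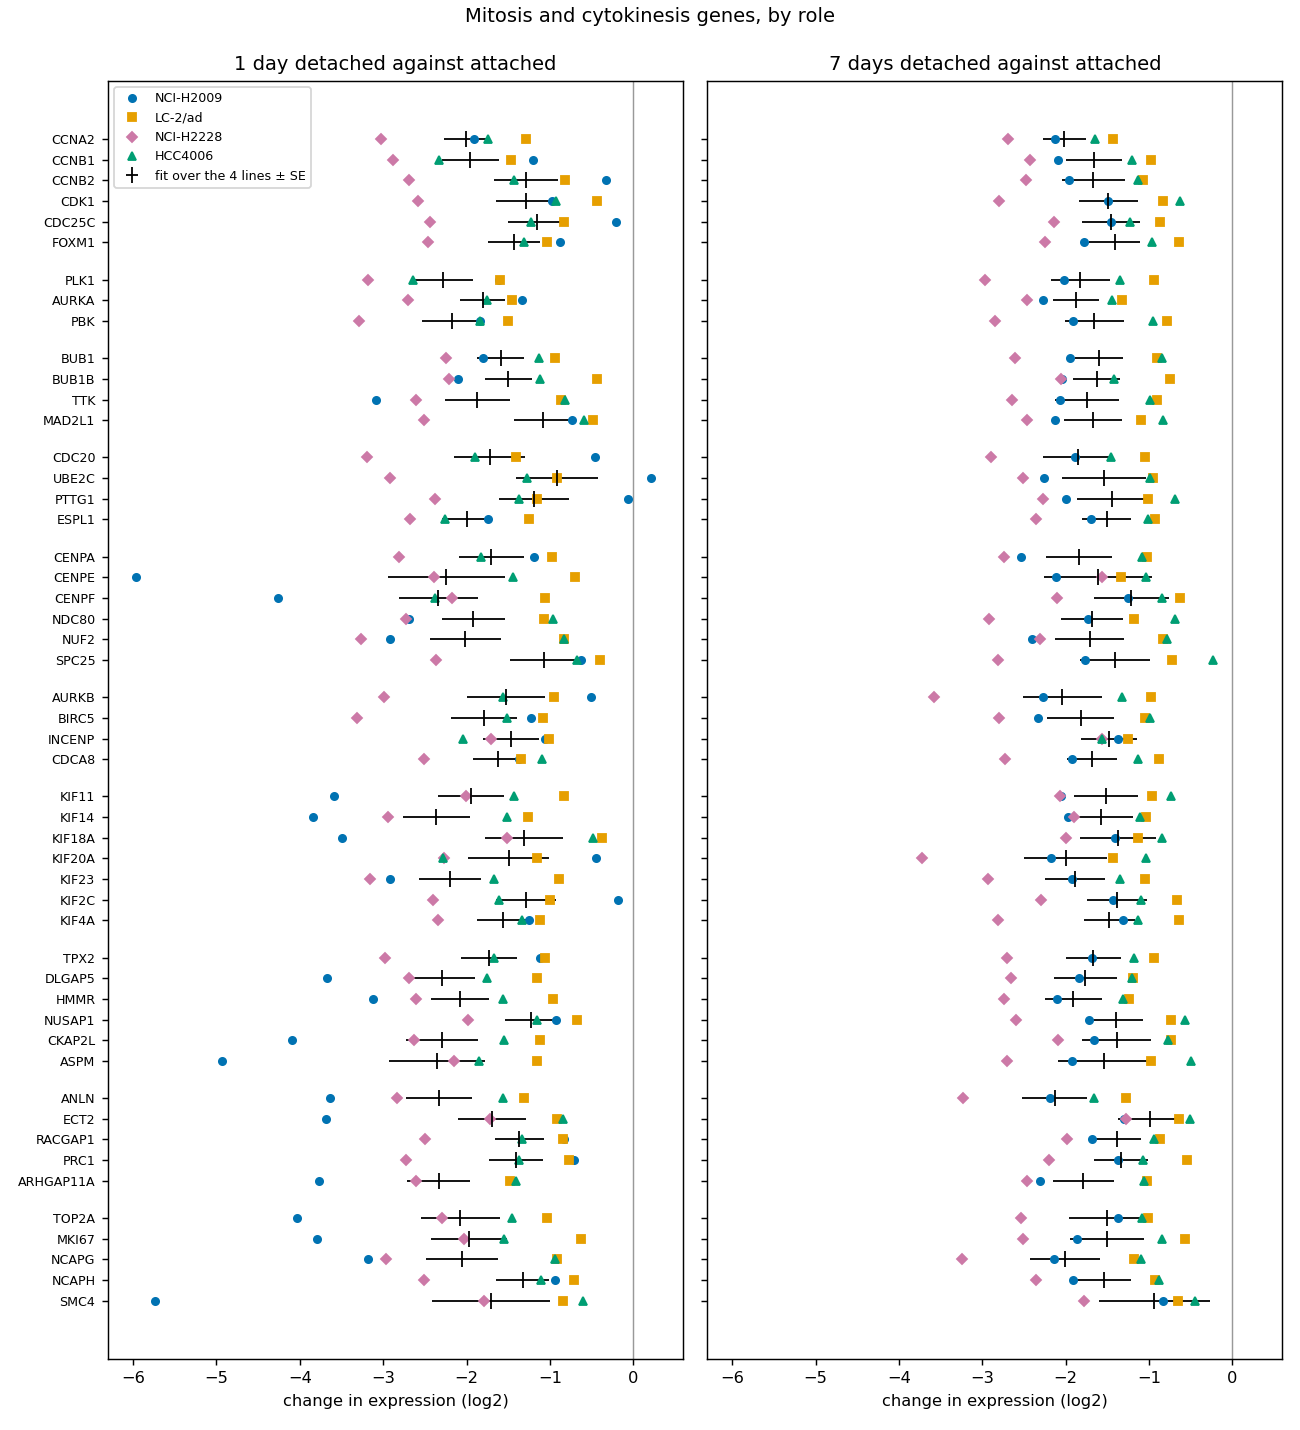
Change of each of the 50 genes in log2 units (horizontal axis) at day 1 (left) and day 7 (right) against attached; coloured symbols are differences of log2 CPM in the 4 lines, and black ticks with bars the edgeR estimate ± SE, with genes grouped by role down the vertical axis. All points except UBE2C in NCI-H2009 at day 1 lie below 0, NCI-H2228 is mostly leftmost, and NCI-H2009 is scattered at day 1 but not at day 7.

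Between day 1 and day 7 no mitosis gene passed the test. 0 of the 50 passed the edgeR test, against 0.0% of all genes, and DESeq2 also called 0 of the 50, against 1.25% of all its genes. CENPF (1.13 ± 0.46) alone had an unadjusted p under 0.05 in edgeR, against 4.85% of all genes with such a p and a higher level. The median was 0.05, with 27 genes above and 23 below 0, and without the NCI-H2009 day 1 library it was 0.11, with 36 above and 14 below. In the 4 lines alike, 8 genes were higher at day 7 and 0 lower, against 9.61% and 8.69% of all genes. By line the median was 0.35 in HCC4006, 0.01 in LC-2/ad, -0.19 in NCI-H2009 and 0.13 in NCI-H2228. On the log2(TPM + 1) scale the median in NCI-H2009 was 0.35, with 31 genes above 0 in place of 22, and the median of all genes tested in that line was 0.41 in place of 0.03. The lowest values were those of UBE2C (-0.62), MAD2L1 (-0.58), AURKB (-0.51), KIF20A (-0.51) and CCNB2 (-0.38). The highest were CENPF, CKAP2L (0.91), ASPM (0.82), KIF14 (0.78) and SMC4 (0.77). With the NCI-H2009 day 1 library left out, these became 0.01, -0.39, -0.08, -0.06 and 0.03 for the first 5 and 0.68, 0.51, 0.33, 0.44 and 0.14 for the others. Across the 50 genes, Pearson's r between this difference and gene length was 0.65 with the library and 0.13 without it.

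Brackets hold day 1 values without the NCI-H2009 day 1 library here too. Other lists of cell cycle genes had medians nearer to 0 than the 50 genes. Of all genes 0.339% were called lower at day 1 and 0.0977% at day 7. Of 40 further mitosis genes, 6 fell at day 1 and 1 at day 7, with medians of -1.21 (-1.29) and -1.34. Among them CEP55 had -1.77 ± 0.28 (-1.67) and DEPDC1 -2.13 ± 0.35 (-1.84) at day 1, and PSRC1 had -1.53 ± 0.22 at day 7. CEP55 acts in abscission and PSRC1 binds the spindle. Of 30 genes of DNA replication and G1/S, the helicase subunit GINS1 fell at day 1, with -1.22 ± 0.22 (-1.18), and none passed at day 7. Medians of the list were -0.67 (-0.69) and -0.80. None of the genes in these lists passed at day 1 without that library. Leaving it out raised the day 7 calls to 4 of the further mitosis genes, against 0.276% of all genes, and left 0 of the replication genes. The replication genes summed to a level that stood at 71.3% of attached at day 1 in HCC4006, 87.3% in LC-2/ad, 78.8% in NCI-H2009 and 30.8% in NCI-H2228, so that NCI-H2228 was lowest here as well. At day 7 the shares were 56.8%, 78.8%, 73.9% and 42.2%.

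The APC/C core, cohesin, condensin and the regulators of cell cycle transcription made up the remaining lists. None of 15 core subunits of the APC/C and FZR1 passed, with medians of -0.16 (-0.16) and -0.09. None of 10 cohesin genes passed, and their medians were -0.57 (-0.16) and -0.17. Within NCI-H2009 the day 1 median was -1.61. The 5 other condensin subunits had medians of -0.75 (-0.88) and -0.80 with none past the threshold in the fit of all libraries. Without the NCI-H2009 day 1 library NCAPD2 passed at day 7, with -1.09 (edgeR adjusted p = 0.0478). 19 transcription regulators of the cell cycle (MuvB, MYBL2, E2F and pocket proteins) had medians of -0.54 (-0.58) and -0.22, again with no call. TFDP1, a partner of E2F proteins, had the smallest p of that list at both times, with -0.60 ± 0.15 (-0.58) and -0.75 ± 0.15 (edgeR adjusted p = 0.0876 and 0.0958). The difference between these lists and the 50 genes was not tested.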

How the data were processed

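Per the labels' protocols, libraries of 4 cell lines in 3 states came from total RNA and the SMART-Seq v4 PLUS Kit. The authors deposited, per the file headers, estimated counts that are not normalized and TPM values scaled to length and library. The genome build is GRCh38, per the submitters' processing notes; no aligner, counter or strand setting is given in the sources used here, and genes with near-identical copies or antisense partners are uncertain. Of the estimated counts above 0, 31.5% are not whole, by exact comparison with no tolerance. Rounded counts went into edgeR 4.0.16 (R 4.3.3; TMM, filterByExpr by state, robust quasi-likelihood fit of all 12 libraries with state and cell line, 6 residual degrees of freedom), which tested 17395 genes. The threshold was a Benjamini-Hochberg adjusted p of 0.05 over all genes tested. The SE of a log2 change is derived from it and its F statistic and restates the test. A value for 1 line is a difference between 2 libraries in log2 CPM, computed with prior count 2, and mean TPM is given ± SD over the lines.

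The cell line pairs the libraries: deviations from the state means correlated at 0.72 to 0.82 between states of a line. Between lines the correlation was no more than -0.09, a value that subtracting the state means pulls below 0. The biological coefficient of variation was 38.7%. GC content came from GENCODE 29 transcripts (GRCh38), matched for 98.9% of the genes tested, and promoters from RefSeq. The edgeR fit of day 1 against attached was tested on simulated counts, and the motif search on planted CHR and CCAAT letters. DESeq2 1.42.0 and limma 3.58.1 were alternatives, beside other scalings, filters and left-out libraries. Intervals cover counting error only. Every one of the 50 genes is named by role; values by library are given for the gene of smallest p in each role, PLK1 and MKI67, and for day 7 against day 1 the 5 lowest and 5 highest values. Genes with values at single libraries outside this rule (UBE2C, SMC4, CENPE, CDK1, MAD2L1 and SPC25) were chosen after their values were seen. The members and lists were chosen with earlier results of these data known.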

Additional observations from a re-analysis of the deposited data

Results flagged for a closer look

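In 3 of 39 sets of 4 values examined (12 genes in each state and the medians by line), 1 library lay far from the others by Dixon's criterion, which chance meets in about 1 of 20 groups. KIF23 stood at 64.6 TPM in attached NCI-H2009, above the other attached libraries. ARHGAP11A stood at 40.9 TPM in the same library. MKI67 stood at 38.8 TPM in LC-2/ad at day 1, above the other day 1 libraries.

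From day 1 to day 7 the median of the 50 genes differed in sign between lines, at 0.35 in HCC4006, 0.0079 in LC-2/ad, -0.19 in NCI-H2009 and 0.13 in NCI-H2228 (log2 CPM). On the log2(TPM + 1) scale it was 0.35 in NCI-H2009 and above 0 in every line. At day 1 UBE2C was 0.21 above attached in NCI-H2009 (log2 CPM; in TPM it was lower) and stood at -1.28 in HCC4006, -0.91 in LC-2/ad and -2.91 in NCI-H2228. With 1 library per line and state, neither difference between lines was tested.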

How the results depend on the processing

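All 50 genes kept a fitted change below 0 at day 1 and day 7 under every alternative, and what moved was the number past the threshold. The 13 genes lower at day 1, of 59 called lower among all genes, became 0 of 1 with DESeq2 size factors, 8 of 47 with library totals, 47 of 751 with DESeq2, 32 of 181 and 31 of 177 with limma on log2(TPM + 1) and log2(TPM + 0.1), 24 of 150 with no filter and 0 of 0 with only the 2 states compared. The 2 lower at day 7, of 17 among all genes, became 1 of 5 with DESeq2 size factors, 45 of 561 with DESeq2, 14 of 84 with no filter and 0 of 0 with 2 states. Of 119 related genes, 7 were called at day 1 and 1 at day 7; these became 0 and 0 with DESeq2 size factors, 40 and 50 with DESeq2, 12 and 12 with no filter, and 0 and 0 with 2 states. At day 1 library totals gave 4 and both limma fits 13. At day 7 limma on log2(TPM + 1) gave 0 and a mean TPM of at least 1 gave 2. Among all genes these day 7 fits called 13 and 23 lower.

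Leaving out a library or a line gave 0 to 1 of the 50 at day 1 and 0 to 9 at day 7 in edgeR, and for the related genes 0 and 0 to 5. DESeq2 and limma fits without the NCI-H2009 day 1 library were added after seeing the data. They called 49 and 19 of the 50 at day 1 and 50 and 24 at day 7. Of all genes they called 549 of 15708 and 62 of 17395 lower at day 1. At day 7 these were 784 of 15708 and 95 of 17395. Of the related genes the same fits called 41 and 5 at day 1 and 61 and 9 at day 7. The analysis is paired by cell line, and with no replicate block the counts were 0 for the 50 genes and 0 for the related genes at both times. From day 1 to day 7 the count was 0 under every alternative. UBE2C turned to 0.141 without NCI-H2009 and to 0.0126, 0.062 and 0.0548 without its day 1 library (edgeR, DESeq2 and limma), and CCNB2 to 0.0712, 0.0271, 0.0314 and 0.137. The day 7 against day 1 median in NCI-H2009 turned from -0.19 to 0.35 on the log2(TPM + 1) scale. The share of promoters with a CHR match was 61.9% before the start only. The cause of these shifts was not tested. With 1 library per line and state, changes that only some lines show cannot be tested.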
